A study of Mus musculus with 8 samples.

Results

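The adult globin genes and their erythroid partners were followed through 8 KPC pancreatic tumors. The members were the 6 genes of the deposited table, out of 29968, whose symbols were Hba-a1, Hba-a2, Hbb-bs, Hbb-bt, Alas2 or Slc4a1, and all 6 passed the low-count filter, as did 16610 genes in total. Bulk RNA was sequenced from orthotopic tumors of 4 WT and 4 C3-/- mice. Hosts were male C57BL/6J mice, 12 weeks old, either wild-type (WT) or null for complement C3 (C3-/-). Every host carried the same tumor line, KPC FC1245, which derives from a pancreatic tumor of a mouse whose mutant alleles, Trp53 R172H among them, were switched on by Pdx-1-Cre. For each tumor, 250000 cells in 50 µL of PBS were placed in the pancreatic tail. Only the host lacked C3, because the implanted cells keep the gene, and a single line stands for the disease in both groups.

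Red blood cells carry hemoglobin, a tetramer of alpha and beta globin chains that each hold a heme group. Their precursors, the erythroblasts, fill with globin mRNA under transcription factors such as GATA1 and KLF1, which bind GATA and CACCC motifs, and expel the nucleus to become reticulocytes. Reticulocytes keep globin mRNA for a while, whereas the transcripts of many other erythroblast genes are lost earlier. Globin mRNA in a solid tissue is therefore often read as a gauge of the blood in the piece, although it cannot tell blood in vessels from blood spilled at collection. Alas2 encodes the erythroid enzyme for the first step of heme synthesis. Slc4a1 encodes band 3, the anion exchanger that anchors the red cell membrane to its skeleton.

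The genes lie at 3 places on the autosomes and 1 on the X chromosome (mm39, coordinates of the deposited table). Hba-a1 (ENSMUSG00000069919) runs from 32233511 to 32234465 and Hba-a2 (ENSMUSG00000069917) from 32246489 to 32247298 on the plus strand of chromosome 11. Hbb-bs (ENSMUSG00000052305) runs from 103475741 to 103477303 and Hbb-bt (ENSMUSG00000073940) from 103461731 to 103463203 on the minus strand of chromosome 7. Slc4a1 (ENSMUSG00000006574) spans 102239650 to 102257029 on the minus strand of chromosome 11. Alas2 (ENSMUSG00000025270) spans 149330371 to 149353634 on the plus strand of chromosome X, inside the Apex2 gene model of the opposite strand. Of the 2037 exonic bases of the canonical Alas2 transcript, 311 lie in an exon of some Apex2 transcript and 0 in an exon of the canonical one. The strand setting of the counting is not given in the sources used here, so reads of the pair may mix, and Apex2 itself stood between 11.9 and 19.9 CPM in the 8 tumors.

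Promoters of 4 members are shown for the elements that the erythroid factors are known to bind, and that of Slc4a1 was not used here. The sequences are the 250 bases before the RefSeq start (GRCm38.p6), 5′ to 3′ on the gene's own strand, and capitals mark GATAA or CACCC on either strand. They cover chr11:32283422-32283671 (Hba-a1, plus strand), chr7:103827929-103828178 (Hbb-bs, minus strand), chr7:103813924-103814173 (Hbb-bt, minus strand) and chrX:150547167-150547416 (Alas2, plus strand).
Hba-a1: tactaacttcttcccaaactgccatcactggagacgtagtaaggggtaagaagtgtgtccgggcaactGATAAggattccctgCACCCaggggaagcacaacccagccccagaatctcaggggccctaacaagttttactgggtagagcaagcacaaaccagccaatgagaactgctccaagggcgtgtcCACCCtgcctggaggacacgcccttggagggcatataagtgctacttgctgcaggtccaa
Hbb-bs: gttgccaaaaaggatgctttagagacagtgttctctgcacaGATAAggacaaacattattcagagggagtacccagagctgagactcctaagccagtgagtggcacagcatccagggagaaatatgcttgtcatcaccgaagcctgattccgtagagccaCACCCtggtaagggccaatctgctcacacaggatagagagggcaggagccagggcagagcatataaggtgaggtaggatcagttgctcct
Hbb-bt: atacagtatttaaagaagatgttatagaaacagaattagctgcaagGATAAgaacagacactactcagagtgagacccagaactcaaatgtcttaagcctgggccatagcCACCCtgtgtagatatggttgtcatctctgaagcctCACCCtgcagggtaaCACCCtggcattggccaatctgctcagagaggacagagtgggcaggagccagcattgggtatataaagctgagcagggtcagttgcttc
Alas2: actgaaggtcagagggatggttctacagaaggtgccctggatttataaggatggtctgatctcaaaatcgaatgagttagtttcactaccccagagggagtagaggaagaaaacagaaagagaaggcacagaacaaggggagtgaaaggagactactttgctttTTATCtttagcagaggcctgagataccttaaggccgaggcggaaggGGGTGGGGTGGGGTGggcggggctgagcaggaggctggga
Each of these windows held 1 GATAA and between 1 and 3 CACCC motifs, and the 3 CACCC copies in Alas2 sit next to each other on the opposite strand. The Hba-a2 window was identical to that of Hba-a1 over all 247 bases that they share. The Hbb-bs and Hbb-bt windows matched at 178 of 243 aligned bases. Over the 27025 genes with such a window, 23% held GATAA, 51.3% held CACCC and 10% held both, counted on both strands. A match of letters is a description of the window and not a bound site.

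The paralogs are hard to tell apart by reads. The coding sequences of Hba-a1 and Hba-a2 differ at 1 of 429 bases, and those of Hbb-bs and Hbb-bt at 1 of 444. Of all 150-base windows of the Hba-a2 transcript, the read length of the study, 72.1% occur unchanged in Hba-a1. The corresponding share was 61.0% for Hba-a1 in Hba-a2, 54.6% for Hbb-bs in Hbb-bt and 50.6% for Hbb-bt in Hbb-bs. The split between the copies, and the level of any 1 copy, is therefore uncertain wherever reads with several matches were dropped or shared out.

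Total counts ranged from 13266029 to 23354212 per tumor, over 22174 to 25343 genes with a count. C3, the deleted gene of the host, was at 209 to 425 CPM (counts scaled to a TMM-normalized library) in WT tumors and at 100.1 to 133 CPM in C3-/- tumors. The epithelial keratin Krt8 stood at 1799 to 3446 CPM. Tumors were tested between genotypes with edgeR's quasi-likelihood test over all 16610 genes, and 0 genes had an adjusted p below 0.05 (percent called 0). At an unadjusted p below 0.05 there were 848 genes, 5.11% of those tested.

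Hbb-bs, an adult beta globin gene, was at 68.8, 123, 967 and 186 CPM in WT replicates 1 to 4 and at 438, 123, 92.9 and 333 CPM in C3-/- replicates 1 to 4. WT replicate 3 stood highest, C3-/- replicate 1 came next and the genotypes overlapped. Hbb-bt, the other adult beta gene, was at 8.44, 18.1, 99.1 and 22.4 CPM in the WT tumors and at 74.8, 16.6, 11.7 and 39.0 CPM in the C3-/- tumors. The same pair of tumors led.

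Alpha globin followed the same order at the top. Hba-a1 was at 63.8, 133, 865 and 119 CPM in WT replicates 1 to 4, and at 509.8, 87.7, 56.9 and 204 CPM in C3-/- replicates 1 to 4. Hba-a2 was at 9.5, 19.5, 118 and 28.7 CPM in the WT tumors and at 68.8, 9.84, 8.81 and 31.5 CPM in the C3-/- tumors. WT replicate 3 was again highest and C3-/- replicate 1 next, and C3-/- replicate 4 ranked behind them in all 4 globins. In bulk tumor RNA, more red cells and more globin RNA per red cell cannot be told apart.

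Summed, the 4 globins made up 0.0152% of the counts in WT replicate 1 (95% Wilson interval 0.0146% to 0.0158%) and 0.192% in WT replicate 3 (0.189% to 0.194%). The other tumors lay between, with 0.0294% and 0.0360% in WT replicates 2 and 4 and with 0.105%, 0.0244%, 0.0175% and 0.0628% in C3-/- replicates 1 to 4. Such intervals cover counting error only, since read pairs carried no molecular identifiers. The summed level of all 6 members was 13.4 times higher in the highest tumor than in the lowest, from 156 CPM in WT replicate 1 to 2096 CPM in WT replicate 3. Without WT replicate 3 that ratio was 7.56.

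Alas2, which supplies heme for the globins, was at 5.21, 7.82, 43.8 and 8.20 CPM in WT replicates 1 to 4 and at 29.9, 9.73, 5.03 and 16.4 CPM in C3-/- replicates 1 to 4. It kept the globin order in the leading tumors, with WT replicate 3 above C3-/- replicate 1 and C3-/- replicate 4. Per 1000 globin counts, Alas2 had between 21.4 counts in WT replicate 3 and 41.0 in C3-/- replicate 2, a ratio of 1.92 while the globin count itself varied 11.2-fold.

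Slc4a1 did not share that order. It was at 0.559, 4.36, 4.66 and 4.29 CPM in WT replicates 1 to 4 and at 60.1, 7.32, 0.252 and 3.0 CPM in C3-/- replicates 1 to 4. Its 1286 counts in C3-/- replicate 1 exceeded the 131 counts of the next tumor, C3-/- replicate 2, by 8.20-fold in CPM, and WT replicate 3, the tumor richest in globin, had 62 counts. Per 1000 globin counts, Slc4a1 ranged from 1.48 in C3-/- replicate 3 and 2.28 in WT replicate 3 to 55.0 in C3-/- replicate 1.

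**Figure D1:**
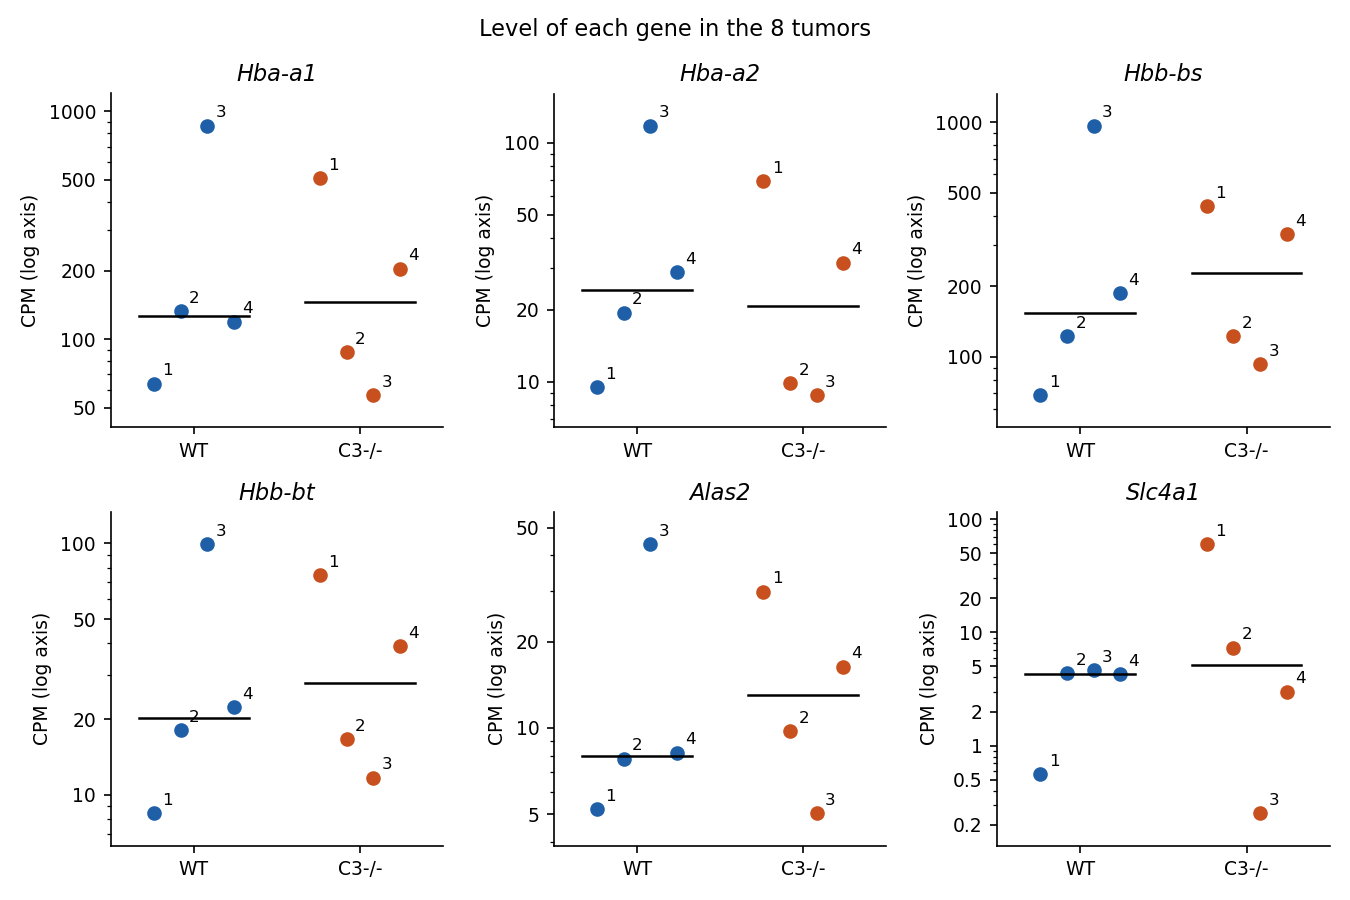
Level of each member in CPM (log axis) in 4 WT and 4 C3-/- tumors, with replicate numbers beside the points and a bar at each group's median. WT replicate 3 is highest for the globins and Alas2 (967 CPM for Hbb-bs), while C3-/- replicate 1 is highest for Slc4a1 (60.1 CPM).

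Levels between genes were compared per length, using the authors' FPKM. Over the 8 tumors the median FPKM was 199 for Hbb-bs, 154 for Hba-a1, 35.9 for Hba-a2, 28.5 for Hbb-bt, 3.69 for Alas2 and 0.877 for Slc4a1. Ranked by FPKM within a tumor, Hbb-bs stood at place 22 of all 29968 genes in WT replicate 3 and at place 469 in WT replicate 1. Slc4a1 stood at place 4661 in C3-/- replicate 1 and at place 22293 in C3-/- replicate 3. The neighbours Hbb-bs and Hba-a1 overlapped in their FPKM ranges, 89.8 to 1247 and 69.8 to 1055, and so did Hba-a2 and Hbb-bt, 13.1 to 175 and 12 to 139.7.

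The alpha to beta ratio, the summed FPKM of both alpha genes over that of both beta genes, was 0.913, 1.04, 0.887 and 0.692 in WT replicates 1 to 4 and 1.08, 0.669, 0.605 and 0.611 in C3-/- replicates 1 to 4. Its mean was 0.883 ± 0.144 for WT and 0.741 ± 0.228 for C3-/- hosts (SD, n = 4 each), and the ranges overlapped. Hba-a2 took 19.4% of alpha counts in WT replicate 4 (95% Wilson interval 18.1% to 20.8%) and between 10.1% and 13.4% in the other 7 tumors. Hbb-bt took from 9.30% of beta counts in WT replicate 3 (8.83% to 9.79%) to 14.6% in C3-/- replicate 1 (13.9% to 15.2%). The paralog windows described above limit what these shares mean for single gene copies.

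**Figure D2:**
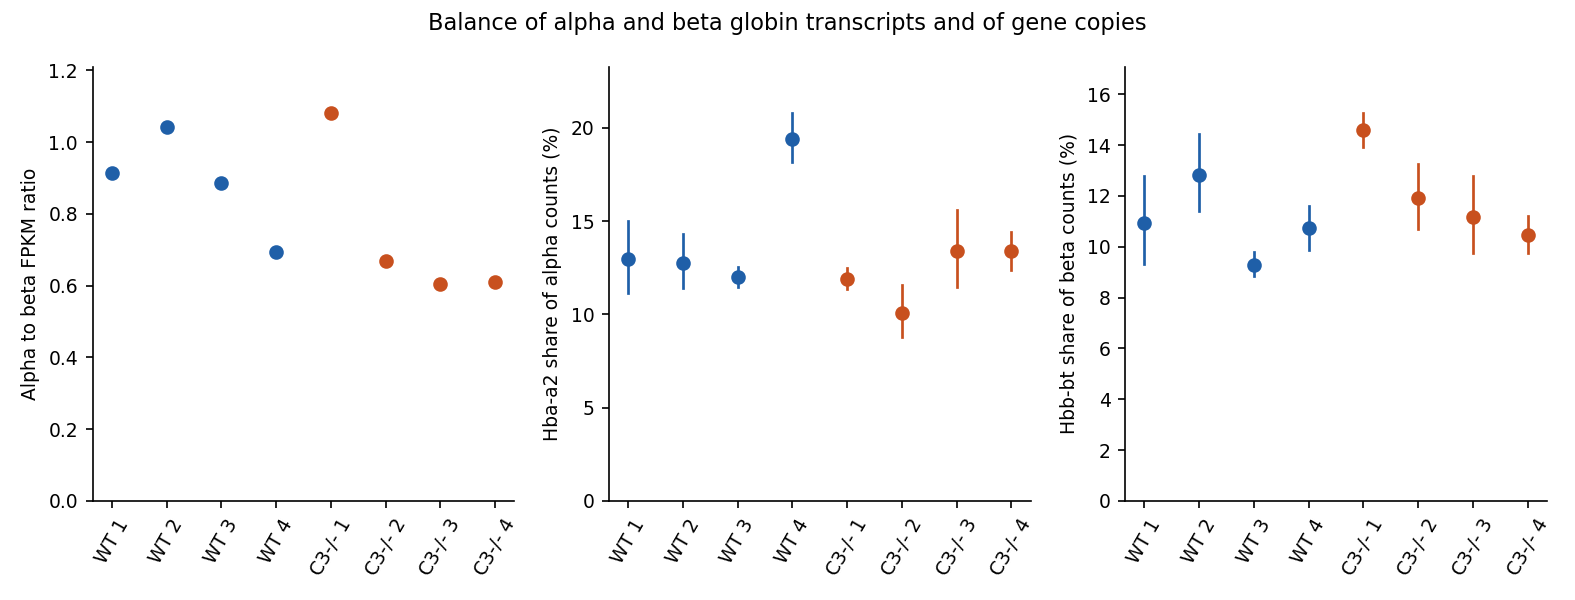
Alpha to beta FPKM ratio (left), share of alpha counts given to Hba-a2 (middle) and share of beta counts given to Hbb-bt (right) in each tumor, with WT tumors in blue, C3-/- tumors in orange and bars for 95% Wilson intervals of the shares. WT replicate 4 stands alone at 19.4% for Hba-a2, and the alpha to beta ratio runs from 0.605 to 1.08.

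The tumors come from a study of complement in the muscle wasting of pancreatic cancer, and comparing them asks whether host C3 changed the tumor transcriptome. None of the 6 members was called between genotypes. In edgeR's quasi-likelihood test 0 of 6 members had an adjusted p below 0.05, and 0 of 6 had an unadjusted p below 0.05. Slc4a1 had an unadjusted p below 0.05 in edgeR without a filter (0.0313), without C3-/- replicate 3 (0.0176) and without C3-/- replicate 4 (0.0481), and was called in none of these. In those fits 1339 of 29968, 469 of 17053 and 664 of 16806 genes had an unadjusted p below 0.05. DESeq2 also called 0 of 6, against 16 of 18864 genes with an adjusted p (0.0848%). Groups did not separate for any member, while they did not overlap for 3.73% of tested genes.

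Mean levels of Hba-a1 were 295 ± 381 CPM for WT and 215 ± 207 CPM for C3-/- hosts (SD, n = 4 each), and of Hbb-bs 336 ± 423 and 247 ± 166 CPM. The log2 fold changes (C3-/- minus WT) were -0.46 (SE 0.86) for Hba-a1, -0.55 (SE 0.81) for Hba-a2, -0.44 (SE 0.78) for Hbb-bs and -0.05 (SE 0.75) for Hbb-bt. Alas2 averaged 16.2 ± 18.4 CPM in WT and 15.3 ± 10.8 CPM in C3-/- tumors, with a log2 fold change of -0.08 (SE 0.71). The adjusted p in edgeR was 0.999 for each of these 5 genes. Their direction was not stable. Without WT replicate 3 the log2 fold changes turned to 1.03, 0.63, 0.97, 1.13 and 1.11 in the order just given, and without C3-/- replicate 1 they were -1.34, -1.38, -0.88, -0.71 and -0.64. With all 8 tumors, limma-voom also gave values above 0 for Hbb-bs (0.021), Hbb-bt (0.26) and Alas2 (0.30).

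For Slc4a1, the means were 3.47 ± 1.95 CPM (WT) and 17.7 ± 28.4 CPM (C3-/-, both SD, n = 4). edgeR estimated a log2 difference of 2.35 (SE 1.19) at an adjusted p of 0.971 (unadjusted p = 0.0751). Without C3-/- replicate 1 it was 0.03 (SE 0.87). limma-voom gave 0.88 (SE 1.47).

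**Figure D3:**
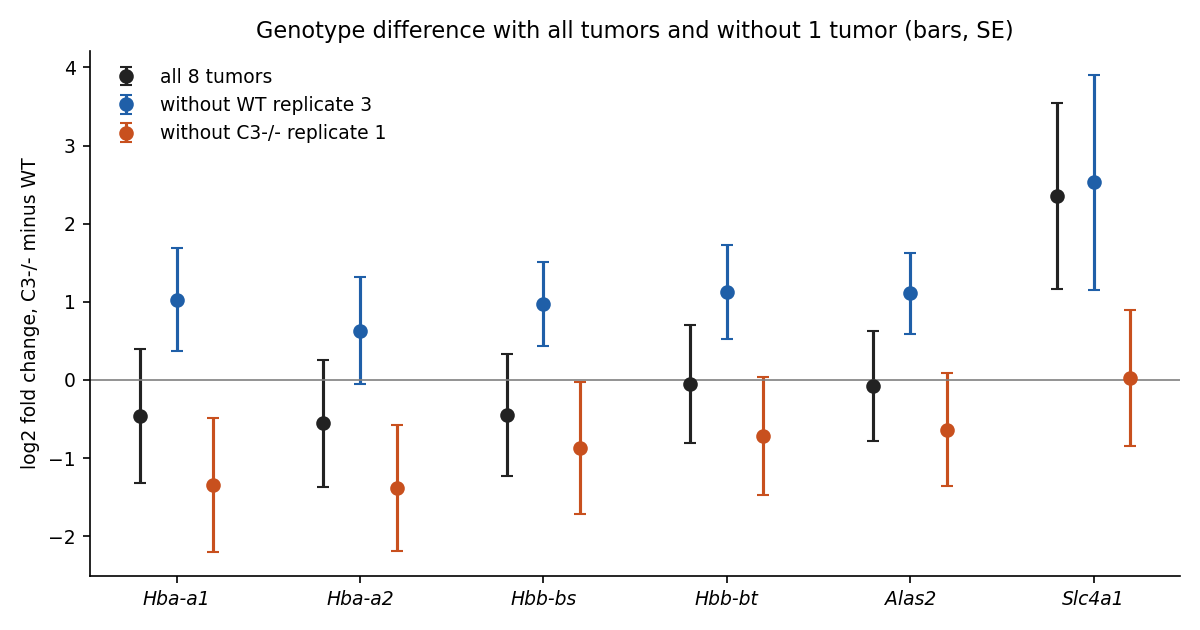
log2 fold change of each member, C3-/- minus WT, with its standard error, from all 8 tumors and without WT replicate 3 or C3-/- replicate 1. The globins and Alas2 move from -0.46 (Hba-a1) to above 0 without WT replicate 3, and Slc4a1 falls from 2.35 to 0.03 without C3-/- replicate 1.

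Co-variation was measured over the 8 tumors on log2 CPM (prior count 2), for all 15 pairs of members. The 6 pairs of globins had Spearman's rho between 0.905 and 0.976 and Pearson's r between 0.960 and 0.985. Exact two-sided permutation p-values of these rhos were 0.00040 to 0.0046, or 0.0020 to 0.0068 after Benjamini-Hochberg adjustment over the 15 pairs, and those of r were 5.0e-05 to 0.00020 (adjusted 0.00043). Alas2 joined them, with rho between 0.905 and 0.952 and r between 0.929 and 0.980 with the 4 globins (exact permutation p of rho 0.0011 to 0.0046, adjusted 0.0029 to 0.0068, and of r 0.00017 to 0.0012, adjusted 0.00043 to 0.0018). Slc4a1 had lower values with the other 5 members, rho 0.595 to 0.738 and r 0.586 to 0.697, with adjusted exact permutation p of 0.0625 to 0.132 for rho and 0.0666 to 0.126 for r (unadjusted 0.0458 to 0.132 and 0.0503 to 0.126).

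WT replicate 3 and C3-/- replicate 1 were farthest from the median on the x axis of every pair. Without them, r was 0.867 to 0.989 among the globins (exact permutation p 0.0028 to 0.019) and 0.708 to 0.927 for Alas2 with a globin. The lowest, Alas2 with Hba-a2, then had r = 0.708 with an exact permutation p of 0.117 and rho = 0.83, so at 6 tumors that relation no longer passed the test. Slc4a1 with the others had r of 0.536 to 0.696 without them (exact permutation p 0.136 to 0.317). Taken as deviations from the genotype mean, the globin pairs kept rho of 0.976 to 1 and r of 0.969 to 0.993.

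The median rho over the 15 member pairs was 0.905, and over all 137937745 pairs of tested genes it was 0. Of those gene pairs, 0.705% had a rho of at least 0.905. The points of every pair share the library and its depth, and the paralogs share reads. Members also varied more between tumors of a genotype than most genes, with biological coefficients of variation of 0.679 (Alas2) to 1.06 (Slc4a1), above 97.6% or more of the genes tested.

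**Figure D4:**
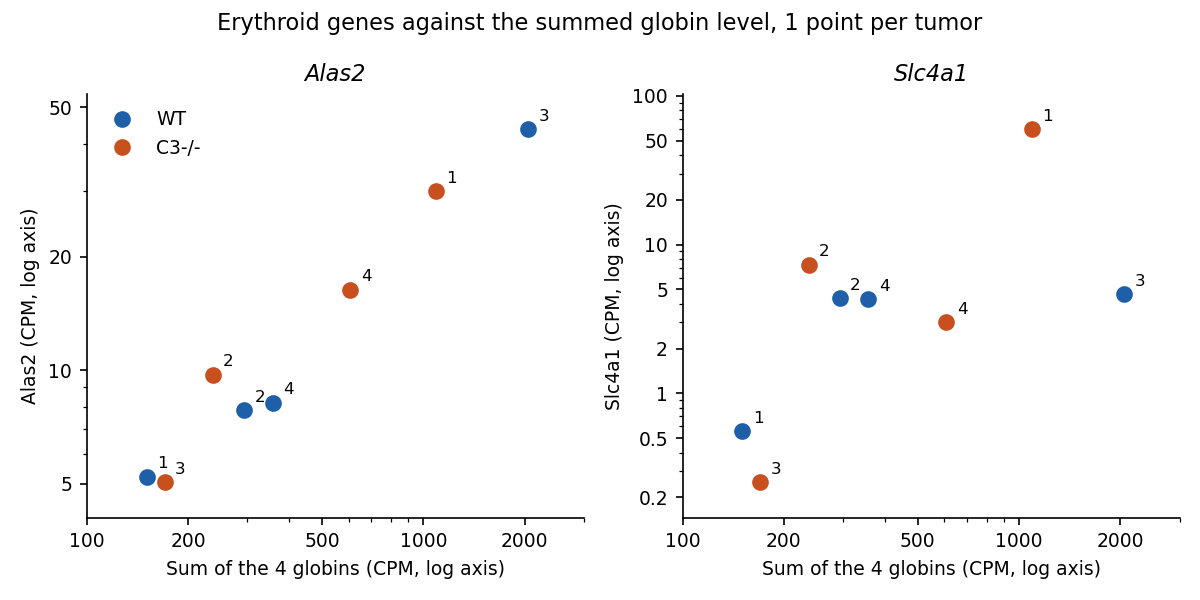
Alas2 and Slc4a1 (CPM, log axis) against the summed CPM of the 4 globins (log axis), 1 point per tumor with its replicate number, WT in blue and C3-/- in orange. Alas2 climbs with the globins, whereas Slc4a1 is at 60.1 CPM in C3-/- replicate 1 and at 4.66 CPM in WT replicate 3.

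Among the other tested genes, the 10 most like the members were taken by Pearson's r with the mean of the members' standardised log2 CPM (n = 8 tumors, no test). They included Fcgr3 (r = 0.964), an Fc receptor of myeloid cells, Cmtm3 (0.963), Dusp5 (0.962), a phosphatase acting on ERK, 2410004B18Rik (0.957), Pstk (0.956), Hspa14 (0.955), Gm15590 (0.955), 9130401M01Rik (0.954) and Tfam (0.953), a mitochondrial DNA packaging factor. Their levels moved less than those of the globins, for example from 51.0 to 94.7 CPM for Fcgr3 and from 31.8 to 40.5 CPM for Tfam.

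Chosen after the values were seen, the genes most like Slc4a1 alone were also ranked. Car1, an erythroid carbonic anhydrase (r = 0.960), Epb42, which links band 3 to the skeleton (r = 0.925), and Trim10, of terminal erythroid maturation (r = 0.921), were among the first 10. All 3 are on the erythroid lists, which hold 37 of the 16610 tested genes. The first 10 also held Gm45606 (r = 0.961), Gfra4 (r = 0.960), ENSMUSG00000095742 (r = 0.945), Tmeff2 (r = 0.941), Igfbp7 (r = 0.925) and Erich2os (r = 0.923), which are on none of these lists. Car1, Epb42 and Trim10 were not among the 10 genes most like the mean of the members.

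The wider erythroid program was followed in lists of red cell membrane genes, erythroid transcription factors, and erythroblast and reticulocyte genes, which held 45 genes of the table, 37 of them tested. None was called by edgeR. Of the 37, 23 were highest in C3-/- replicate 1 and 4 in WT replicate 3, against 18.0% and 19.1% of all tested genes. The 10 genes whose level in C3-/- replicate 1 was at least 4 times that of the next tumor, a threshold set after the values were seen, included Rhd, Car1, Gata1, Hemgn, Ermap, Trim10, Klf1, Kel and Epb42. Of them 5 were tested, and 0.132% of all tested genes passed the same threshold. In WT replicate 3 no gene of these lists did (0).

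Regulators and surface antigens of erythroid cells were among them. Gata1, the master factor of erythroid cells, was at 4.11 CPM in C3-/- replicate 1 and at 0 to 0.491 CPM in the other 7 tumors, and at 0 in WT replicate 3. Klf1, the factor that activates adult beta globin, was at 6.07 CPM there and at 0.126 to 0.978 CPM elsewhere. Rhd, of the Rh antigen complex, was at 8.97 CPM against 0 to 0.60 CPM. A count of 0 in a library allows a level of up to 0.127 to 0.226 CPM (3 counts), depending on its depth. In WT replicate 3, the tumor with most globin, Klf1 was at 0.978 CPM and Rhd at 0.226 CPM.

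**Figure D5:**
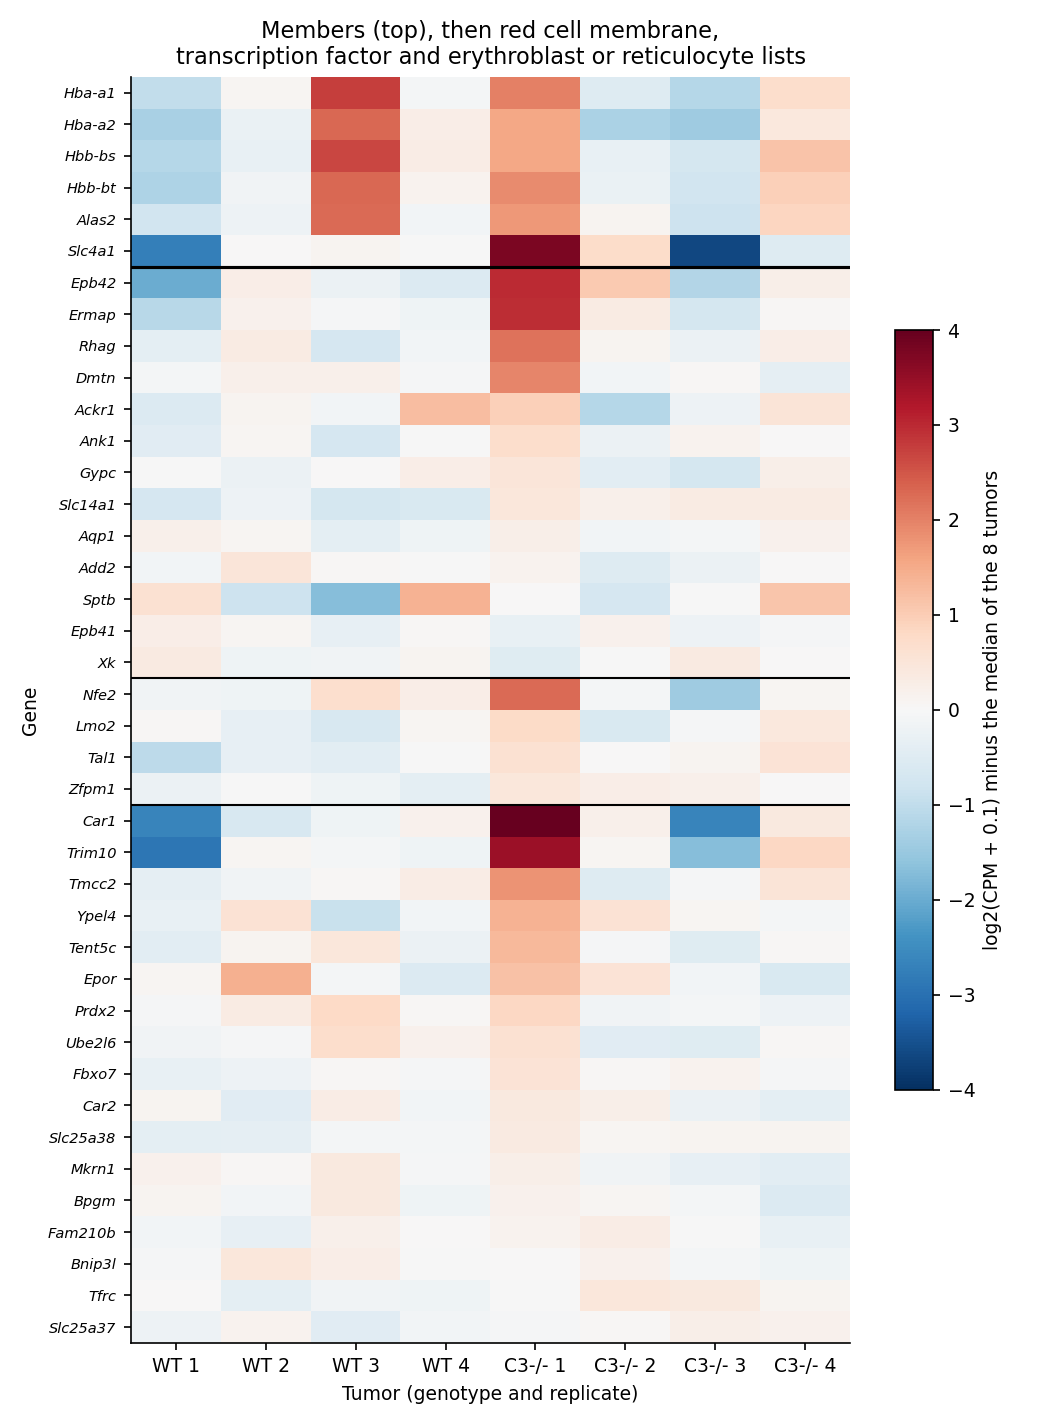
log2(CPM + 0.1) of the 6 members and of 34 of the 37 tested genes of the 3 erythroid lists, minus each gene's median over the 8 tumors (color), with tumors in columns and lists separated by lines. The globins and Alas2 are high in WT replicate 3 and C3-/- replicate 1, whereas Slc4a1, Epb42, Car1 and Trim10 have their highest level in C3-/- replicate 1.

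By list, log2 fold changes (C3-/- minus WT) of the 15 tested membrane genes centred on a median of 0.44, with 2 of 15 at an unadjusted p below 0.05, both higher, against 5.11% of all tested genes in either direction. The most abundant were Aqp1, a water channel (mean of all tumors 200.2 CPM), Epb41 (81.6 CPM) and Add2 (28.2 CPM), which are not limited to red cells. DESeq2 called 1 of the 131 list genes with an adjusted p, against 0.0848% of all genes with one. It was Slc14a1, a urea transporter on the membrane list. Slc14a1 was lowest in WT replicate 3, the tumor richest in globin, at 4.89 CPM, and stood at 9.34 to 11.1 CPM in the C3-/- tumors. Its means were 5.51 ± 0.947 CPM (WT) and 10.2 ± 0.71 CPM (C3-/-, both SD, n = 4), with a log2 fold change of 0.88 in DESeq2 (adjusted p = 0.0316) and an adjusted p of 0.933 in edgeR. The 4 transcription factors tested had a median of 0.57, with 2 of 4 higher at an unadjusted p below 0.05, and were led by Zfpm1, the GATA1 cofactor (152 CPM), Lmo2 (8.44 CPM) and Tal1 (8.08 CPM). The 18 erythroblast and reticulocyte genes had a median of 0.16, with 3 of 18 higher, and Prdx2, a peroxidase (408 CPM), Tfrc, the transferrin receptor (175 CPM), and Bpgm, which makes 2,3-bisphosphoglycerate (122 CPM), were the most abundant. Which cells the transcripts of these lists came from was not tested. The median over all tested genes was 0.00. Without C3-/- replicate 1 these medians were 0.02 for 14 membrane genes, 0.27 for 4 transcription factors and -0.10 for 17 erythroblast and reticulocyte genes, where 2 were then lower and 1 higher at an unadjusted p below 0.05, with 1 of 14 membrane genes and 2 of 4 transcription factors higher. In that fit 10.7% of all tested genes had an unadjusted p below 0.05. Over the other alternatives the medians ranged from 0.04 (10 membrane genes, with at least 10 counts in every tumor) to 0.66 for the membrane genes, from 0.39 to 0.86 for the transcription factors and from 0.09 to 0.31 for the erythroblast and reticulocyte genes.

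The rest of the heme pathway spanned a narrower range. The 8 enzymes other than Alas2, Alad (56.6 CPM) and Fech (56.6 CPM) among them, summed to 297 to 355 CPM in WT and to 299 to 436 CPM in C3-/- tumors. Their median log2 fold change was 0.10, with 1 of 8 higher at an unadjusted p below 0.05. Other globins, of which 5 of 11 were in the table, comprised Cygb (48.0 CPM), Mb of muscle (5.67 CPM), Ngb (0.361 CPM) and the theta globins Hbq1b (0.120 CPM) and Hbq1a (0.0258 CPM), and Cygb and Mb, the 2 that were tested, had a median of 0.35. The 13 tested genes of heme and iron handling, led by ferritins Fth1 (1278 CPM) and Ftl1 (575 CPM) and the receptor Lrp1 (656 CPM), had a median of -0.16 with 1 of 13 lower. Without C3-/- replicate 1 the medians were -0.05 for the heme enzymes, 0.17 for the other globins and -0.37 for heme and iron handling, with 5 of 13 lower at an unadjusted p below 0.05 (10.7% of all genes in that fit). Other tumors also moved them. The median of the heme enzymes was 0.04 without WT replicate 4, 0.24 without WT replicate 3, 0.22 without C3-/- replicate 4, 0.17 without C3-/- replicate 3 and 0.16 without C3-/- replicate 2. That of Cygb and Mb lay between 0.07 without C3-/- replicate 4 and 0.89 without WT replicate 4, with 0.14 without WT replicate 3, 0.23 without WT replicate 2 and 0.62 without C3-/- replicate 2. That of heme and iron handling was -0.07 without WT replicate 3, -0.25 without WT replicate 4 and -0.11 without C3-/- replicate 3.

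Other cells that blood or neighbouring tissue could bring were described by list sums, and their part in the globin levels was not tested. The platelet list (Itgb3, Pf4 and Ppbp most abundant) summed to 80.6 to 164 CPM in WT and 60.1 to 113 CPM in C3-/- tumors, and 5 of its 7 tested genes were highest in WT replicate 3, where 19.1% of all tested genes were. The neutrophil list (Ltf, S100a9, S100a8) summed to 65.3 to 294 and 98.9 to 258 CPM, with the sum highest in WT replicate 3, where 1 of its 8 tested genes was highest, and with 3 of 8 highest in C3-/- replicate 1, where 18.0% of all tested genes were. The B cell list (Ighm, Igkc, Cd79b) stood at 98.7, 12.4, 129 and 36.8 CPM in WT replicates 1 to 4 and at 176, 31.3, 32.7 and 112 CPM in C3-/- replicates 1 to 4. The spleen list (Cxcl13, Cd5l, Stab2) stood at 3.65 to 15.8 CPM in all tumors. Endothelial genes (Plvap, Pecam1, Cdh5) summed to 350.4 to 482 and 318 to 512 CPM, with neither globin-rich tumor at the top.

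Acinar genes (Ctrb1, Cela1, Prss2) reached 1904 CPM in C3-/- replicate 1, where 12 of 12 were highest, and 41.9 to 572 CPM in the others. Skeletal muscle genes (Acta1, Myh4, Tnnt3) were at 30.1 CPM in WT replicate 3 and at 2009.6 CPM in C3-/- replicate 1, within a range of 15.6 to 3777 CPM. Hepatocyte genes (Trf, Ttr, Alb) summed to 407 to 713 CPM. Between genotypes the median log2 fold changes were -0.41 for the 7 tested platelet genes, 0.31 for 8 neutrophil, 0.48 for 5 B cell, -0.61 for 3 spleen, -0.09 for 12 endothelial, 0.29 for 10 muscle, 0.79 for 12 acinar and -0.68 for 7 hepatocyte genes. Single tumors set several of these. Without C3-/- replicate 1 the median was -4.93 for the acinar list (12 of 12 lower at an unadjusted p below 0.05, 2 of them called, where 0.0237% of all genes were called), -0.10 for B cells, 0.01 for neutrophils, -0.82 for platelets and -1.25 for spleen genes, and limma-voom with all tumors gave -2.91 for the acinar list. The muscle median lay between -0.38 without C3-/- replicate 4 and 1.58 without WT replicate 4, and the spleen median was -0.08 without WT replicate 3. The hepatocyte median ranged from -0.24 to -2.40 with single tumors left out, and it was -2.40 to -1.75 in the 5 of these fits where 8 genes of the list were tested in place of 7. At an unadjusted p below 0.05, 1 platelet, 1 spleen and 3 hepatocyte genes were lower and 2 neutrophil and 1 B cell gene higher, against 5.11% of all tested genes in either direction, and edgeR called 0 of the genes of any list with all 8 tumors.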

How the data were processed

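Poly-A RNA of 4 WT and 4 C3-/- KPC tumors was analysed. The authors deposited raw counts per gene, size-factor-normalized counts (a signal, not used here) and FPKM on mm39. The paper names STAR 2.5 and HTSeq 0.6.1, whereas the submitters' processing notes name HISAT2 2.0.5 and DESeq2 1.20.0, so how reads with several matches were handled in the globin counts is uncertain. The authors' log2 fold changes and p-values in the deposited table were not used.

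Counts were tested with edgeR 4.0.16 (R 4.3.3, filterByExpr with a minimum count of 10, TMM, glmQLFit and glmQLFTest, Benjamini-Hochberg), with DESeq2 1.42.0, limma-voom (limma 3.58.1), other scalings and filters, robust fitting, a replicate block and each tumor left out as alternatives. Standard errors for edgeR were derived as the absolute log2 fold change over the square root of the quasi-likelihood F statistic. The tests were tried on simulated data. Correlations used scipy 1.17.1 and enumeration of all pairings. Where nothing states separate cultures or cages, p-values measure the spread between these tumors.

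Named genes were the members, the 3 most abundant genes of each of 14 lists, any list gene called, and the 10 genes most like the members. Others are named as chosen afterwards. Members and lists were chosen with earlier results of these data known. A few genes that meet these rules are not reported here.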

Additional observations from a re-analysis of the deposited data

Results flagged for a closer look

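For each member, the globin sum, 5 ratios and 14 list sums, the highest or lowest tumor of a genotype was checked against Dixon's 95% criterion for a gap in a group of 4. Of 52 groups, 10 passed. For normally distributed values, chance alone passes about 1 group in 20 (2.6 of 52). Levels entered the check as CPM and not as log2 CPM, and whether they were normally distributed was not tested. The 10 can therefore not be read as an excess over the 2.6. These groups share tumors and reads and are not independent.

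On the CPM scale, WT replicate 3 stood apart in 5 of the groups that passed. It was at 865 CPM for Hba-a1 (63.8 to 133 CPM in the other WT tumors), 967 CPM for Hbb-bs (68.8 to 186 CPM), 99.1 CPM for Hbb-bt (8.44 to 22.4 CPM), 43.8 CPM for Alas2 (5.21 to 8.20 CPM) and 2048 CPM for the 4 globins together (151 to 357 CPM).

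C3-/- replicate 1 stood apart for Slc4a1, at 60.1 CPM (0.252 to 7.32 CPM in the other C3-/- tumors), for the alpha to beta FPKM ratio, at 1.08 (0.605 to 0.669), and for the acinar list, at 1904 CPM (41.9 to 68.1 CPM).

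WT replicate 1 was low for Slc4a1, at 0.559 CPM (4.29 to 4.66 CPM in the other WT tumors). WT replicate 4 was high for the share of alpha counts given to Hba-a2, at 19.4% (12% to 13%).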

How the results depend on the processing

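No member was called under any alternative run (0 in each). Over all genes, DESeq2 called 16 and, over the fixed lists, 1 (Slc14a1), against 0 and 0. Leaving out single tumors gave 0 to 4 genes and 0 to 2 list genes, the highest without C3-/- replicate 1, where Ctrb1 and Prss2 were the list genes. Slc4a1 could not be fitted with at least 10 counts in every tumor.

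Directions of the globins and Alas2 were not stable. limma-voom gave 0.021 for Hbb-bs, 0.26 for Hbb-bt and 0.30 for Alas2 (log2, C3-/- minus WT). The replicate block gave 0.20, 0.25 and 0.34 for the same genes, 0.48 for Slc4a1 in place of 2.35, and 0 calls. Same-numbered tumors had correlations of deviations from the genotype mean of -0.03, 0.49, -0.36 and 0.59. Differently numbered tumors were not compared, so these values cannot decide whether the numbers pair the tumors. Leaving out single tumors, log2 fold changes ranged from -1.34 to 1.03 for Hba-a1, -1.38 to 0.63 for Hba-a2, -0.88 to 0.97 for Hbb-bs, -0.71 to 1.13 for Hbb-bt, -0.64 to 1.11 for Alas2 and 0.03 to 2.75 for Slc4a1. All of the highest values of the globins and Alas2 came without WT replicate 3. Without C3-/- replicate 2 or 3, Hbb-bt (0.18, 0.23) and Alas2 (0.09, 0.20) also turned. The cause was not tested.

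The lowest pairwise rho, 0.595 (exact permutation p = 0.132), was 0.738 on deviations from the genotype mean (exact permutation p = 0.0458), and 0.429 to 0.786 with single tumors left out, where only leaving out C3-/- replicate 2 took its p below 0.05 (exact permutation p = 0.0480). The median rho stayed between 0.857 and 0.964 with single tumors left out, and was 0.952 without Slc4a1, a choice made after seeing the data. The ratio of summed member levels was 7.56 to 13.4 with single tumors left out, lowest without WT replicate 3. Depth limits the low erythroid genes, several of which had counts of 0.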
